A study of Mus musculus with 4 samples.

Results

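Imprinted genes are expressed mainly from the copy inherited from one parent, and 41 of them were followed here in sorted dorsal neural tube cells of mouse embryos with and without functional PRDM13. They are the rows of the expression table whose gene symbol matched a list of known mouse imprinted genes, 41 of the 24421 genes in the table. By textbook knowledge 23 are expressed from the paternal copy, 14 from the maternal copy, and for 4 (*Grb10*, *Gnas*, *Blcap* and *Inpp5f*) the copy depends on the promoter, isoform or tissue. The question was how the genes moved between genotypes, by parental class and by the imprinted cluster they lie in.

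PRDM13 is a zinc finger protein of the PR domain family that represses transcription in the dorsal neural tube. Neural tubes of E11.5 embryos were dissociated, their GFP+ cells were sorted and the RNA was sequenced, for *Prdm13* GFP/+ embryos, called control here, and *Prdm13* GFP/GFP embryos, called mutant. In both genotypes GFP inserted into *Prdm13* disrupts the allele that carries it and marks the cells of the *Prdm13* lineage, so the controls carry 1 disrupted copy as well. RNA of 7 control embryos and of 9 mutant embryos was combined into 1 pool for each genotype, and 2 libraries of polyadenylated RNA were made from each pool. The libraries are therefore technical replicates, and every SD, standard error and p-value given here covers library preparation and sequencing but no difference between embryos. With pooled bulk RNA, a change in the number of cells of a type and a change in RNA per cell cannot be told apart.

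Parental copies are distinguished by DNA methylation placed on imprinting control regions in the egg or the sperm. The zinc finger protein ZFP57 and its partner TRIM28 protect these marks in the early embryo, and long noncoding RNAs or insulator binding by CTCF then silence neighbouring genes in cis on one copy. Many imprinted genes act on growth, on the placenta and on the developing brain, and several are known for high expression in newly formed neurons. The deposited values count reads from both copies of a gene together, so the parental origin given for each gene is background and was not measured.

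The unit throughout is RPKM, reads scaled to exon length and to library size, as the authors computed it after TMM normalization. Whole reads recovered from the RPKM summed to 11561478 and 18396218 in the control libraries and to 16412964 and 13883604 in the mutant libraries. The reads of a gene are known only up to a factor common to its 4 counts, so true counts can be a multiple of those printed. Over 12046 genes, the median absolute log2 difference between libraries of a pool was 0.0783 in control and 0.0776 in mutant. The targeted gene, *Prdm13*, had 114 and 127 RPKM in control and 310 and 324 RPKM in mutant. Its log2 fold change was 1.40 ± 0.0613 (SE, limma adjusted p = 3.63e-05), and as reads of the disrupted GFP allele are counted too, this level does not measure functional transcript. The 10 neural tube markers were all above 1 RPKM, with 1 called higher in mutant and 2 lower, where 6.33% of all genes tested were called. At a limma adjusted p under 0.05 whatever the fold, 3 were higher and 5 lower, where 19.7% of all genes passed in either direction. The summed RPKM of 6 neuronal markers was 1511 and 1562 in control and 1947 and 2046 in mutant, with 2 called higher (*Stmn2* and *Gap43*) and 1 lower (*Snap25*). Whatever the fold, 4 neuronal markers were higher and 1 lower at a limma adjusted p under 0.05. For 4 dorsal root ganglion markers the sums were 3.42 and 3.21 in control and 8.03 and 8.84 in mutant, and for 4 neural crest and glial markers 12.2 and 15.2 in control and 6.90 and 7.27 in mutant. For 7 progenitor markers they were 2124 and 2088 in control and 2086 and 2160 in mutant. Of the progenitor markers 0 were called. At a limma adjusted p under 0.05 whatever the fold, 2 were higher in mutant (*Hes5* and *Pax6*) and 1 lower (*Sox2*). Sums of 8 mesenchymal markers ran from 12.3 to 16.6 RPKM, of 7 endothelial markers from 4.07 to 5.72 and of 6 erythroid markers from 47.2 to 49.7, with *Hba-a1* at 0 reads in every library. Of these, 2 mesenchymal, 2 endothelial and 3 erythroid markers were tested, and limma called 0, where 6.33% of all genes tested were called. The others had means under 1 RPKM in both genotypes and could not be called. Of those tested, 1 endothelial marker had an unadjusted limma p under 0.05 and was called when limma voom was run on recovered reads. What part the shifts in neural tube, neuronal, progenitor, ganglion and neural crest markers have in the results for imprinted genes was not tested.

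Promoter windows, the 250 bases before an annotated transcription start, were read from RefSeq on GRCm38.p6 for 34 of the 41 genes, 54 windows in all. No window is shown for *H19*, *Rtl1*, *Peg10*, *Sgce*, *Impact*, *Trappc9* or *Peg13*. The windows held a median of 10 CG dinucleotides, against 6 in all 32851 windows of the genome. The hexamer TGCCGC, the core letters that ZFP57 binds when methylated, was found on either strand in 9 windows (16.7%), against 8.68% of all windows. The E-box CAGCTG, bound by neural bHLH proteins, was found in 5 (9.26%), against 13% of all windows, and GCCATNTT, the core of the YY1 motif, in 3 (5.56%), against 3.91%. No match of one motif overlapped a match of another in these windows, while some windows of a gene overlap each other, as both downstream windows of *Mest* do. A match is a run of letters and not a measured binding site.

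Windows of 4 genes that passed the test are printed 5′ to 3′ on the strand of the gene, with TGCCGC, or GCGGCA where it lies on the other strand, in capitals. They were chosen after values had been seen: *Nnat* rose and *Zdbf2* fell in mutant cells, *Grb10* has both a CG-rich and a CG-poor start, and *Nap1l5* is a retrogene with its own start inside another gene. The first *Zdbf2* window, at the upstream start, holds 3 matches and the second, at the downstream start, holds 0.
*Nnat*, chr2:157559828-157560077, plus strand, 12 CG: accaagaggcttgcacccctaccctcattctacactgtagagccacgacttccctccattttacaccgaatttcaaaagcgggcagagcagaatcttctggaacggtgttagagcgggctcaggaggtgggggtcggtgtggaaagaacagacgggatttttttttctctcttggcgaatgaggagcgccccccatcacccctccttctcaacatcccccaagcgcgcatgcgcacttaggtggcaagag
*Zdbf2*, upstream start, chr1:63200108-63200357, plus strand, 13 CG: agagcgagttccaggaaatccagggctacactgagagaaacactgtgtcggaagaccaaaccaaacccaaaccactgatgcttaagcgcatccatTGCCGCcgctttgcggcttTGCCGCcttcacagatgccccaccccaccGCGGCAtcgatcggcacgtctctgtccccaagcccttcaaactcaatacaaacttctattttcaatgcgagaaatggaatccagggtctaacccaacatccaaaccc
*Zdbf2*, downstream start, chr1:63273019-63273268, plus strand, 26 CG: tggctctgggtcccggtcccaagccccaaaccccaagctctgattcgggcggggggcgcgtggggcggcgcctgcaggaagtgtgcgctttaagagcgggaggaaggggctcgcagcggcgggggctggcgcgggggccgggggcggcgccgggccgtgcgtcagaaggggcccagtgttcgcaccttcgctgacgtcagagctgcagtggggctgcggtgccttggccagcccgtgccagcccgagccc
*Grb10*, upstream start, chr11:12037421-12037670, minus strand, 40 CG: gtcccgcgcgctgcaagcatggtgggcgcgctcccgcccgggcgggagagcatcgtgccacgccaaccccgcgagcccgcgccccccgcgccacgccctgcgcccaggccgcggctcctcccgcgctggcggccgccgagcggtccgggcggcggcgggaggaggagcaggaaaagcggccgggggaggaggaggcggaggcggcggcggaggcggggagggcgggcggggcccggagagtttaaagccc
*Grb10*, downstream start, chr11:12027972-12028221, minus strand, 8 CG: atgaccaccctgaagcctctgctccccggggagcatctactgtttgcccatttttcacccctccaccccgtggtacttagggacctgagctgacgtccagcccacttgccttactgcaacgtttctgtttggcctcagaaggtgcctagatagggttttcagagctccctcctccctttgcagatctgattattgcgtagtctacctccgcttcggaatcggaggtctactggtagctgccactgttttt
*Nap1l5*, chr6:58907127-58907376, minus strand, 10 CG: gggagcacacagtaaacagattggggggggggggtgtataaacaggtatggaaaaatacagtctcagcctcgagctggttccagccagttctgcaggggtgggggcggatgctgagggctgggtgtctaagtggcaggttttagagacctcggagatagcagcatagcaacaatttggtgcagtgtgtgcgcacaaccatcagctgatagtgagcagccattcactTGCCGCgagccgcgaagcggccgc

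*Peg3* and *Usp29* are transcribed away from each other, and 163 bases lie between the starts used for their windows, upstream of both. The annotated span of *Peg3* reaches 6730462 and that of *Usp29* begins at 6730559, so the ends of this stretch lie inside those spans. They are shown because *Peg3* fell while *Usp29* stayed under 1 RPKM.
Between the *Peg3* and *Usp29* starts, chr7:6730420-6730582, plus strand, 5 CG: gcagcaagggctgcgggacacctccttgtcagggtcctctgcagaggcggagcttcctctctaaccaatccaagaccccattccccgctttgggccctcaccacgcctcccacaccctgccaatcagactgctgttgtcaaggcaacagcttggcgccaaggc

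*H19* is the precursor of a microRNA as well as a long noncoding RNA. Both mature arms of miR-675 lie in an exon of *H19* on the minus strand of chromosome 7, and are printed with the seed, bases 2 to 8, in capitals. The separate row for *Mir675*, looked up after values had been seen, had 0 reads in every library, and mRNA libraries of this kind do not measure mature microRNAs.
miR-675-5p, chr7:142577112-142577133: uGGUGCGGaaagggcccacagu
miR-675-3p, chr7:142577078-142577099: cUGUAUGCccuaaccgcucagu

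The imprinted genes spanned a wide range of levels. *Nnat* was the most abundant at rank 39 of the 12046 genes tested, and 5 genes (*Grb10*, *Gnas*, *Nnat*, *Plagl1* and *Ndn*) had a mean of at least 100 RPKM in both genotypes. At the other end, 10 genes had a mean under 1 RPKM in both genotypes and were not tested. These were *Rtl1*, *Dio3*, *Usp29*, *Zim1*, *Snrpn*, *Phlda2*, *Slc22a18*, *Slc38a4*, *Airn* and *Kcnq1ot1*. *Asb4* was under 1 RPKM in control and entered the test through its mutant level alone, so it had to differ in that direction. Summed over the 41 genes, the level was 1677 and 1693 RPKM in control and 2185 and 2226 in mutant. *Nnat* made up 36.1 and 37.6% of this sum in control and 46.4 and 47.2% in mutant. Without *Nnat* the sums were 1071 and 1056 RPKM in control and 1170.2 and 1175 in mutant. Within these, *Grb10* had means of 131 RPKM in control and 195 in mutant, and *Peg10* of 23 and 57.2. By log2 fold change, 18 of the 31 genes tested were higher in mutant and 13 lower. The RPKM of the whole table summed to 387052 and 387905 in control and to 398555 and 403508 in mutant.

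**Figure D1:**
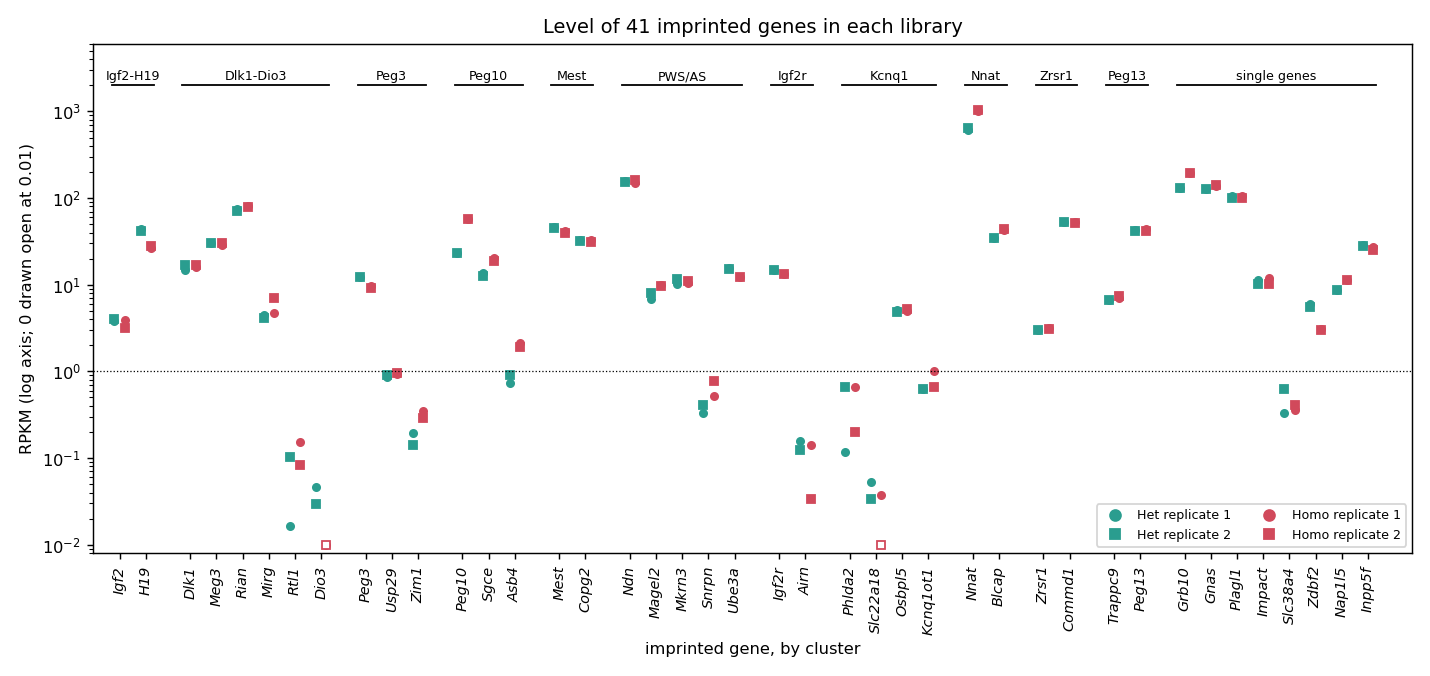
RPKM of the 41 imprinted genes on a log axis, grouped by cluster (PWS/AS, Prader-Willi/Angelman), with a point for each of 2 control (Het, green) and 2 mutant (Homo, red) libraries. Replicates of a pool mostly lie on top of each other, *Nnat* is highest at 606 to 1051 RPKM, and 10 genes lie under the dotted line at 1 RPKM by their means in both genotypes.

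Of the 31 imprinted genes tested with limma on log2(RPKM + 0.1), 3 were called higher in mutant (*Peg10*, *Nnat* and *Asb4*) and 2 lower (*Zdbf2* and *H19*), at an adjusted p under 0.05 over all genes and a fold of at least 1.5. Among all 12046 genes, 6.33% were called, 3.65% higher and 2.67% lower. With an adjusted p under 0.05 whatever the fold, here called passing the test, 8 of the 31 were higher (also *Grb10*, *Sgce*, *Blcap*, *Magel2* and *Nap1l5*) and 4 lower (also *Peg3* and *Ube3a*), and the shares among all genes were 9.76% and 9.95%, or 19.7% in either direction. *Asb4* entered the test through its mutant level alone, so it could only be called higher. For 19 imprinted genes the test was not passed. The median log2 fold change over the 31 was 0.05, against 0.01 for all genes tested, and the median absolute log2 fold change was 0.14 against 0.13. Levels of control and mutant libraries did not overlap for 21 of the 31, where 62.1% of all genes tested did not overlap. Without the second mutant library 4 passed the test higher, and without any one of the control libraries or the second mutant library 2 passed it lower.

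**Figure D2:**
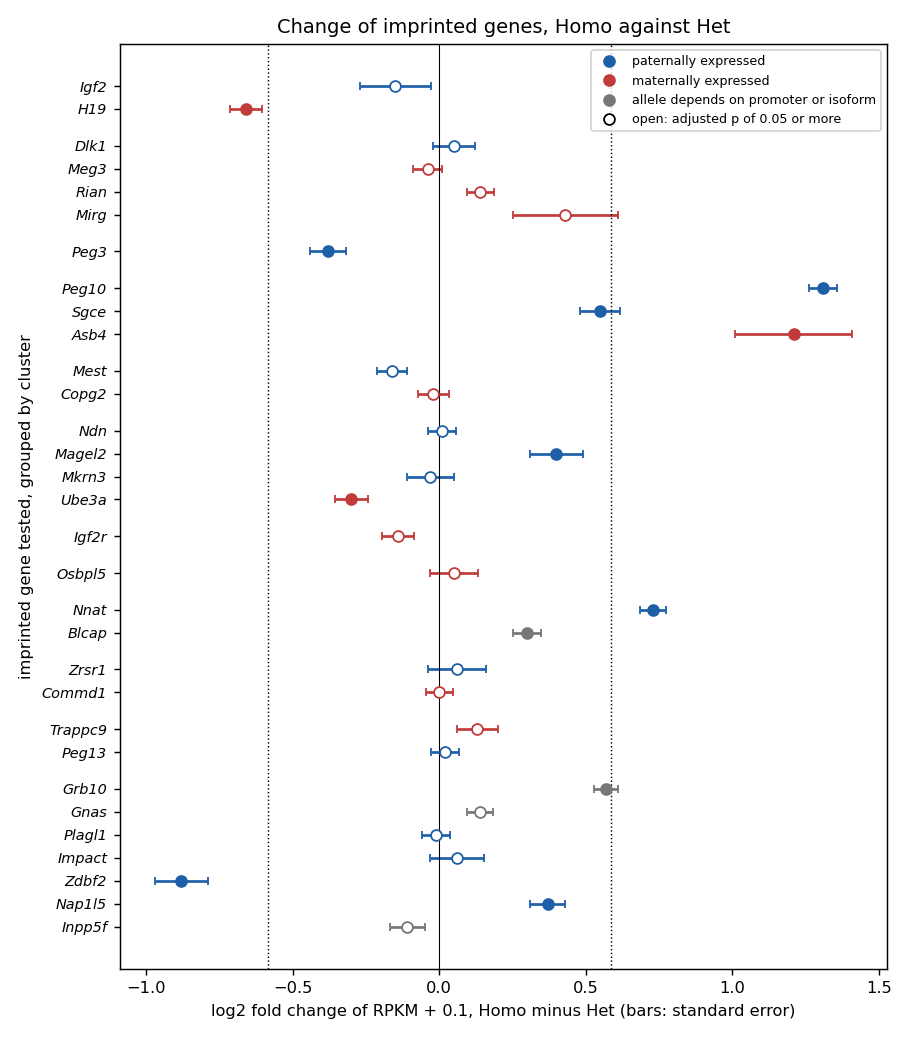
Log2 fold change of RPKM + 0.1, mutant (Homo) minus control (Het), of the 31 imprinted genes tested, grouped by cluster and coloured by the parental copy known to be expressed. Bars are the limma standard error, filled points have an adjusted p under 0.05, dotted lines mark 1.5-fold, and the values run from -0.88 (*Zdbf2*) to 1.31 (*Peg10*).

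In the *Peg10* cluster on chromosome 6 the paternally expressed *Peg10* and *Sgce* rose in mutant cells. The third gene, the maternally expressed *Asb4*, entered the test through its mutant level alone, so it had to be higher. *Peg10*, a retrotransposon-derived gene needed for the placenta, lies from 4747306 to 4760517 on the plus strand. It had 23.1 and 23 RPKM in control and 56.7 and 57.8 RPKM in mutant. The libraries of a pool were nearly equal and the genotypes far apart, by 2.49-fold, with a log2 fold change of 1.31 ± 0.0473 (SE, limma adjusted p = 1.88e-05). *Sgce*, which encodes a sarcoglycan of the membrane and is mutated in myoclonus dystonia, starts beside *Peg10* and runs the other way, from 4747204 down to 4674350. It had 13.8 and 12.6 RPKM in control and 20.1 and 18.8 RPKM in mutant, without overlap. The log2 fold change was 0.55 ± 0.0683 (adjusted p = 0.00309), and *Sgce* was short of the 1.5-fold limit, at 1.47-fold. Without the first control library it was 0.62, and without the second mutant library 0.60, both past that limit.

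*Asb4*, which encodes a substrate adaptor of a ubiquitin ligase, lies farther along chromosome 6, from 5383386 to 5433022, and is maternally expressed in some tissues. It had 0.737 and 0.914 RPKM in control and 2.15 and 1.91 RPKM in mutant, from 28, 55, 115 and 86 reads. The genotypes did not overlap, at a ratio of 2.46 and a log2 fold change of 1.21 ± 0.2 (adjusted p = 0.009). Only the mutant level of *Asb4* passed the filter, so the direction of this change was fixed before the test. The call rests on both mutant libraries: the adjusted p was 0.0703 without the first and 0.0586 without the second. The summed RPKM of the cluster, most of it from *Peg10*, was 37.6 and 36.5 in control and 78.9 and 78.5 in mutant.

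*Nnat*, a small paternally expressed membrane protein of the endoplasmic reticulum in neurons, and its host gene *Blcap* both rose. *Nnat* lies within an intron of *Blcap*, from 157560078 to 157562525 on chromosome 2, on the opposite strand, and the annotated exons share 0 bases. *Nnat* had 606 and 637 RPKM in control and 1014.5 and 1051 RPKM in mutant. Every mutant library exceeded every control library, by 1.66-fold on average, with a log2 fold change of 0.73 ± 0.0449 (adjusted p = 0.000168). *Blcap*, whose parental bias differs between isoforms, had 35 and 34.7 RPKM in control and 42.3 and 43.9 RPKM in mutant. The change was smaller, at a log2 fold change of 0.30 ± 0.0485 (adjusted p = 0.00781), and again without overlap. The test was not passed without the second control library (adjusted p = 0.0544) or without the second mutant library (adjusted p = 0.077).

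*Zdbf2*, a paternally expressed zinc finger gene of chromosome 1 (63200358 to 63314576), fell the most of the imprinted genes tested. It had 6 and 5.49 RPKM in control and 3.12 and 3.01 RPKM in mutant, from 540 to 1321 reads per library. Control levels were 1.87-fold higher and did not overlap those of mutant, with a log2 fold change of -0.88 ± 0.0913 (adjusted p = 0.00152). Both of the starts whose windows are printed above count toward this gene in RPKM per gene, and their use was not separated.

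In the *Igf2*-*H19* cluster on chromosome 7 the maternally expressed noncoding RNA fell, while the paternally expressed growth factor did not pass the test. *H19* (142575530 to 142578146, minus strand) had 44.4 and 41.9 RPKM in control and 26.7 and 28.1 RPKM in mutant. Its levels did not overlap between genotypes, and control was 1.58-fold higher, with a log2 fold change of -0.66 ± 0.0558 (adjusted p = 0.00065). *Igf2*, which signals for embryonic growth, had 3.79 and 4.05 RPKM in control and 3.89 and 3.18 RPKM in mutant. These ranges overlapped, and the log2 fold change was -0.15 (95% interval -0.44 to 0.14, adjusted p = 0.422). *H19* is abundant in mesoderm. The sums of mesenchymal markers were 14.3 and 16.6 RPKM in control and 12.3 and 14.4 in mutant, ranges that overlap. Most of each sum was *Tcf15*, at 9.47 and 11.3 RPKM in control and 8.52 and 10.6 in mutant. *Col1a2*, *Col3a1*, *Pdgfra* and *Prrx1* were lower in mutant without overlap, and *Meox1* was higher without overlap. *Col1a1*, *Twist1* and *Tcf15* overlapped. Among all genes tested 62.1% did not overlap. Of the 8 markers 2 were tested, and 0 of them were called by limma or limma voom or had an unadjusted p under 0.05. The others had means under 1 RPKM and could not be called. The part of mesodermal cells in the level of *H19* was not tested.

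*Igf2r*, the maternally expressed receptor that clears IGF2, had 14.8 and 14.6 RPKM in control and 13.2 and 13.4 RPKM in mutant, with a log2 fold change of -0.14 (95% interval -0.27 to -0.01, adjusted p = 0.125). With limma voom on recovered reads it passed the test, at -0.16 (adjusted p = 0.0258). *Airn*, the antisense RNA that silences the paternal *Igf2r* copy outside neurons, had 1 to 5 reads per library. *Grb10* encodes an adaptor that dampens insulin and IGF receptor signalling, is expressed from the maternal copy in most tissues and from the paternal copy in neurons, and lies on chromosome 11 from 11930499 to 12037428. It had 132 and 131 RPKM in control and 195 RPKM in both mutant libraries. The log2 fold change of 0.57 ± 0.0405 (adjusted p = 0.000322) was just short of the limit of 0.585, at 1.48-fold. Since RPKM sums all transcripts of a gene, reads from the CG-rich and the CG-poor start of *Grb10* were not told apart.

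**Figure D3:**
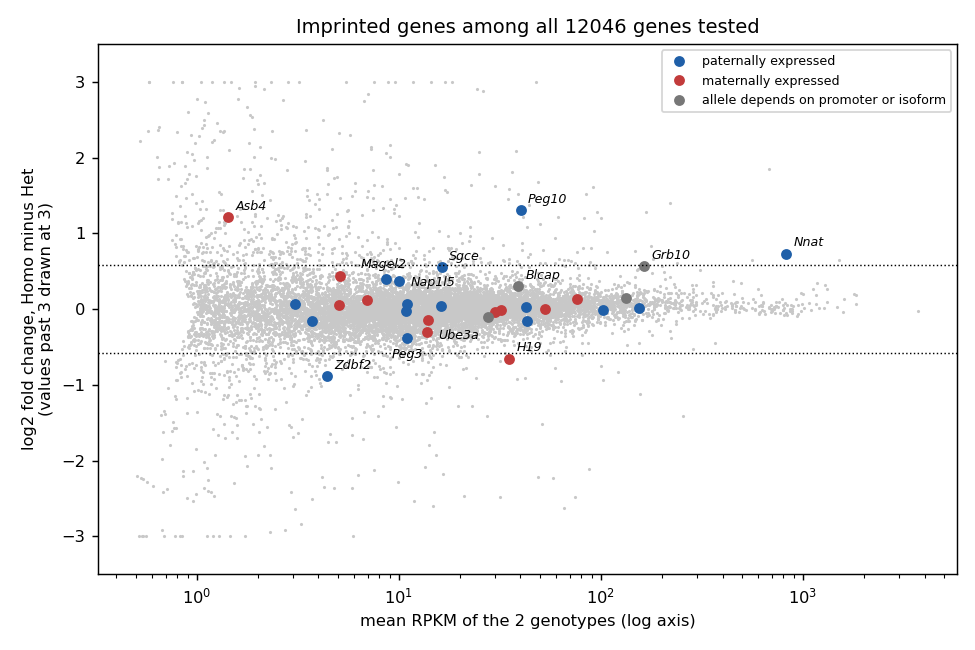
Log2 fold change, mutant (Homo) minus control (Het), against the mean RPKM of both genotypes on a log axis for the 12046 genes tested (grey), with the 31 imprinted genes coloured by parental class and those with an adjusted p under 0.05 named. *Nnat*, *Grb10* and *Peg10* lie at 0.73, 0.57 and 1.31, and *Asb4* lies at the low end of the range of levels.

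In the Prader-Willi/Angelman cluster on chromosome 7 the genes moved in both directions. *Magel2*, a MAGE family regulator of ubiquitination and protein recycling, had 6.84 and 8.05 RPKM in control and 9.99 and 9.61 RPKM in mutant. It was higher without overlap, at a log2 fold change of 0.40 ± 0.0903 (adjusted p = 0.0269). This pass was lost in 5 of 13 alternatives. The adjusted p was 0.0574 with no filter, 0.0731 without the trend, 0.127 without the first control library, and 0.144 and 0.152 without the first and the second mutant library. *Ube3a*, the ubiquitin ligase lost in Angelman syndrome, is maternally expressed in mature neurons, and had 15.4 and 15.2 RPKM in control and 12.3 and 12.4 RPKM in mutant. It fell by 0.30 on the log2 scale (SE 0.0551, adjusted p = 0.0125), with an adjusted p of 0.0777 to 0.0903 when any one library was left out. Its exons share 1803 bases with those of the antisense transcript *Snhg14*, and whether the counting used strand is not given in the sources used here, so reads of the pair cannot be told apart there. *Snhg14*, looked up after values had been seen, had 12 and 11.2 RPKM in control and 14.2 and 12.1 in mutant (log2 fold change 0.17, adjusted p = 0.224).

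*Ndn*, which encodes necdin and restrains neuronal proliferation, is the neighbour of *Magel2* and was abundant at 157 and 152 RPKM in control and 151 and 160 RPKM in mutant. Its ranges overlapped, and the log2 fold change was 0.01 (95% interval -0.11 to 0.13, adjusted p = 0.914). *Mkrn3*, a RING finger gene known for its role in the timing of puberty, had 10.2 and 11.8 RPKM in control and 10.5 and 11 RPKM in mutant (log2 fold change -0.03, adjusted p = 0.824). *Snrpn*, which encodes a spliceosome protein of neurons, was at 0.327 and 0.413 RPKM in control and 0.517 and 0.768 in mutant, from 9 to 25 reads. Its exons share 216 bases on the same strand with *Snurf*, whose own row was listed at 0 in every library. How reads in shared exons were assigned is not given in the sources used here, and the level of *Snrpn* is uncertain.

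*Peg3*, a large zinc finger gene of chromosome 7 expressed from the paternal copy, fell. It had 12.3 and 12.4 RPKM in control and 9.7 and 9.26 RPKM in mutant, without overlap, at a log2 fold change of -0.38 ± 0.0606 (adjusted p = 0.008). The adjusted p was 0.0574 and 0.0728 without the first and the second control library, and 0.0849 without the second mutant library. *Usp29*, whose window start lies on the other side of the 163 bases printed above, had 0.864 and 0.914 RPKM in control and 0.942 and 0.968 in mutant. The maternally expressed *Zim1* had 8 to 20 reads per library. *Nap1l5*, a paternally expressed member of the nucleosome assembly protein family within *Herc3*, had 8.81 and 8.73 RPKM in control and 11.4 and 11.3 RPKM in mutant. The replicates differed little and the log2 fold change was 0.37 ± 0.059 (adjusted p = 0.00792), with an adjusted p of 0.055 to 0.0834 when any one library was left out. *Peg3* and *Nap1l5* thus moved in opposite directions, each by less than 1.5-fold.

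In the *Dlk1*-*Dio3* cluster on chromosome 12, 0 of the 4 genes tested passed at an adjusted p under 0.05 by limma without a replicate block or by limma voom on recovered reads, while 2 had an unadjusted p under 0.05. *Dlk1*, a transmembrane protein related to Notch ligands, had 14.9 and 16.7 RPKM in control and 15.9 and 16.8 RPKM in mutant (log2 fold change 0.05, 95% interval -0.13 to 0.22). The maternally expressed noncoding RNAs are made from the same strand of the cluster. *Meg3* had 30.1 and 30.2 RPKM in control and 28.8 and 30 in mutant (interval -0.16 to 0.08). *Rian*, host of small nucleolar RNAs, had 74.1 and 71.5 RPKM in control and 81.2 and 78.8 in mutant (log2 fold change 0.14, interval 0.02 to 0.25, adjusted p = 0.0915). *Mirg*, host of a microRNA cluster, had 4.46 and 4.08 RPKM in control and 4.73 and 7.09 in mutant (log2 fold change 0.43, adjusted p = 0.143), so the mutant libraries differed from each other more than the first did from control. Without the first mutant library the log2 fold change of *Mirg* was 0.72 and was called (adjusted p = 0.0331). *Rtl1* had 1 to 13 reads per library, and *Dio3*, which inactivates thyroid hormone, had 1 read in each control library and 0 in each mutant library, under the limit of 3 reads that a count of 0 allows.

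The remaining genes tested did not pass by limma on log2(RPKM + 0.1), although *Mest* and *Gnas* passed with limma voom on recovered reads. *Mest*, a paternally expressed hydrolase gene, had 46.3 and 44.6 RPKM in control and 41.4 and 39.7 in mutant (log2 fold change -0.16, interval -0.29 to -0.04, adjusted p = 0.0698), and an adjusted p of 0.0152 with limma voom and of 0.0484 with quantile normalization. *Copg2*, a coatomer subunit gene with 912 exon bases in common with *Mest* on the other strand, ran from 31 to 32.9 RPKM over all libraries. *Gnas*, the stimulatory G protein locus, had 126 and 128 RPKM in control and 137 and 143 in mutant (log2 fold change 0.14, adjusted p = 0.0717, or 0.0222 with limma voom), and sums transcripts of opposite parental origin. *Plagl1*, a zinc finger transcription factor of a network of imprinted growth genes, had 106 and 101 RPKM in control and 105 and 100 in mutant (interval -0.13 to 0.10). Log2 fold changes lay between -0.11 and 0.13 for *Inpp5f*, *Trappc9*, *Peg13*, *Impact*, *Zrsr1*, *Commd1* and *Osbpl5*. Of these 7, the interval was widest for *Zrsr1*, from -0.18 to 0.30. *Zrsr1* is a retrogene inside *Commd1*, with 412 shared exon bases on opposite strands.

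Of the genes not tested, *Kcnq1ot1* had the most reads and *Usp29* had 77 to 129 per library, while the other 8 had at most 45. *Kcnq1ot1*, an antisense RNA that silences the *Kcnq1* cluster on the paternal copy, had 0.63 and 0.632 RPKM in control and 1 and 0.668 in mutant, from 608 to 1360 reads over a very long transcript. The first mutant library stood above the other 3. *Phlda2*, a regulator of placental growth, had 1 to 9 reads per library and the transporter gene *Slc22a18* had 0 to 1. *Slc38a4*, an amino acid transporter gene, had 15 to 45 reads.

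By parental class, paternally expressed genes passed in both directions, where among all genes tested 9.76% passed higher and 9.95% lower. Of the 23 paternally expressed genes 16 were tested, with 5 passing higher (*Peg10*, *Sgce*, *Nnat*, *Magel2* and *Nap1l5*) and 2 lower (*Peg3* and *Zdbf2*), and a median log2 fold change of 0.034. Of the 14 maternally expressed genes 11 were tested, with 1 passing higher (*Asb4*) and 2 lower (*H19* and *Ube3a*), and a median of -0.004. As *Asb4* entered the test through its mutant level alone, it could pass higher only. The difference between the classes was not tested, because the genes were chosen with results known. For many maternally expressed genes imprinting is limited to some tissues or isoforms, and without these 4 were tested, with *H19* the only gene passing and a median of 0.049. The 4 genes with a promoter-dependent copy had a median of 0.22, with 2 passing higher (*Grb10* and *Blcap*) and 0 lower.

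Neighbours that are oppositely imprinted by textbook class can be compared within a library, where differences in depth cancel. Both genes were tested for 7 of 10 such pairs, and with 2 libraries a genotype the exact two-sided permutation test cannot go below p = 0.333. Imprinting of *Asb4*, *Copg2*, *Trappc9* and *Commd1* is limited to some tissues, isoforms or neurons, so pairs with these genes may not be oppositely imprinted in the cells sorted here. *Mest* and *Copg2*, and *Zrsr1* and *Commd1*, share exon bases on opposite strands, so reads of these pairs may not be told apart. The log2 ratio of *Igf2* to *H19* was -3.51 and -3.34 in control and -2.75 and -3.10 in mutant. Mutant ratios were higher without overlap, by 0.50 (pooled SD 0.199, exact permutation p = 0.333). The ratio of *Sgce* to *Asb4* was 4.05 and 3.65 in control and 3.16 and 3.23 in mutant, a difference of -0.66. As *Asb4* entered through its mutant level alone, the filter favours a lower ratio in mutant for both pairs that hold *Asb4*, and they are given as values with no test. *Peg10* and *Asb4* had overlapping ratios of 4.79 and 4.51 in control and 4.65 and 4.85 in mutant. *Dlk1* and *Meg3* also overlapped, at -1.01 and -0.85 in control and -0.86 and -0.83 in mutant. The differences for *Mest*/Copg2, *Peg13*/Trappc9 and *Zrsr1*/Commd1 were -0.15, -0.10 and 0.07, without overlap and each at the smallest p allowed.

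**Figure D4:**
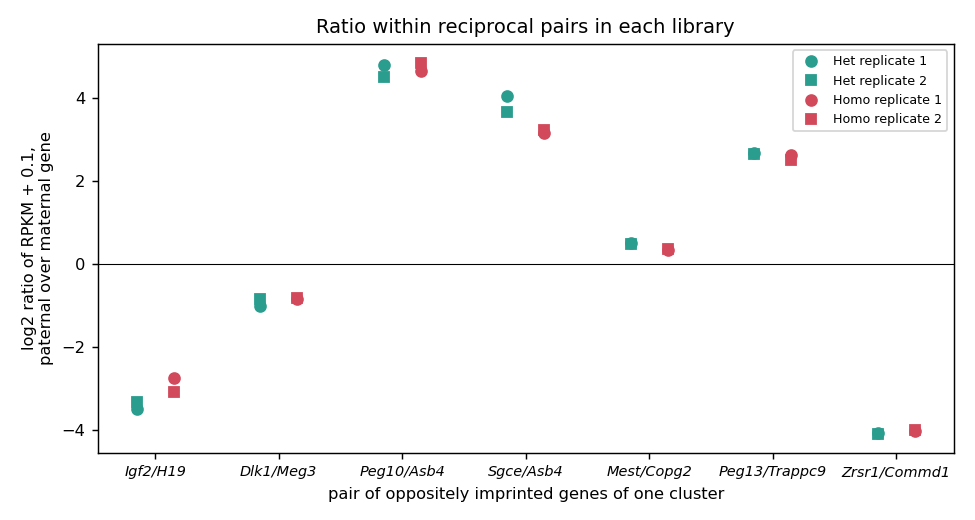
Log2 ratio of RPKM + 0.1 of the paternally over the maternally expressed gene of a cluster in each library, for 7 pairs in 2 control (Het, green) and 2 mutant (Homo, red) libraries. Parental classes are textbook ones, and imprinting of *Asb4*, *Copg2*, *Trappc9* and *Commd1* is limited to some tissues, isoforms or neurons. The ratio is higher in mutant for *Igf2*/H19, and overlaps between genotypes for *Peg10*/Asb4 and *Dlk1*/Meg3.

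Other known imprinted genes outside the 41 were described from a second list, of which 45 were in the table and 22 tested. Whether these genes are imprinted in the cells sorted here was not measured. By limma 2 were called higher, 2 lower, and regardless of fold 5 passed higher and 4 lower, with a median log2 fold change of 0.08. Among all genes tested 6.33% were called, and 9.76% passed higher and 9.95% lower. *Th*, the enzyme that makes L-DOPA, had 4.48 and 4.5 RPKM in control and 7.98 and 7.28 in mutant (log2 fold change 0.75, adjusted p = 0.00168). *Ddc*, the enzyme that follows it and a neighbour of *Grb10*, had 12 and 10 reads in control and 49 and 37 in mutant (log2 fold change 1.66, adjusted p = 0.0204). *Begain*, a synaptic scaffold gene beside *Dlk1*, had 10.1 and 12.1 RPKM in control and 5.81 and 6.47 in mutant (log2 fold change -0.84, adjusted p = 0.00299). *Kcnk9*, a potassium channel gene beside *Peg13*, fell from 14 and 33 reads to 6 and 1 (log2 fold change -2.37, adjusted p = 0.0292). Both *Ddc* and *Kcnk9* rest on few reads, and each entered the test only through the genotype in which it was high, so it had to differ in that direction.

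Genes that set, keep or remove the methylation of imprints all differed by less than 1.5-fold where tested. The list includes *Tet1*, *Tet2* and *Tet3*, whose enzymes act in removing DNA methylation, named after values had been seen. *Tet1* (log2 fold change -0.39, limma adjusted p = 0.0453) and *Tet2* (-0.30, adjusted p = 0.0247) are among those counted as lower below. *Tet3* did not pass (-0.19, adjusted p = 0.0542). Of 18 such genes 15 were tested and 0 were called by limma or limma voom, although 12 had an unadjusted p under 0.05, as had 34.1% of all genes tested. At an adjusted p under 0.05 whatever the fold, 0 were higher and 6 lower, where 9.95% of all genes were lower, and the median log2 fold change was -0.19. With limma voom 12 of the 15 passed in either direction, where 28% of all genes did. *Dnmt1*, the maintenance DNA methyltransferase, was named after values had been seen, with 70.5 and 69.7 RPKM in control and 55.7 and 57.6 in mutant (log2 fold change -0.31, adjusted p = 0.00605). *Zfp57*, also named after values had been seen, had 40.3 and 40.9 RPKM in control and 43.3 and 44.5 in mutant (log2 fold change 0.11, adjusted p = 0.144).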

How the data were processed

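RNA-seq of 2 control and 2 mutant libraries was analysed. The authors aligned reads to mm10 (GRCm38) with TopHat2 2.1.0, used featureCounts to count them per RefSeq gene, applied TMM in edgeR 3.6.8 and deposited RPKM values. Counts themselves were not used here. Whole reads were recovered for 100% of the 19200 genes above 0, within 0.01 read plus a small margin that grows with the count. Of the solved exon lengths 71.2% lay within 5% of GENCODE. A gene's reads are known up to a factor common to its 4 counts. Reads serve as a measure of depth and cover counting error only. A gene with 0 reads may have up to 3.

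Genes with a mean of at least 1 RPKM in either genotype were tested on log2(RPKM + 0.1) with limma 3.58.1 in R 4.3.3 (lmFit, eBayes with trend, two-sided, Benjamini-Hochberg). Called genes differed by 1.5-fold or more with an adjusted p under 0.05. Fold changes on this scale understate those of low genes. The trend follows mean RPKM and not reads, so genes with few reads can be called too readily. The test was checked on simulated libraries. Genotypes and replicates were taken from the submitters' labels. Members and lists were chosen with earlier results of these data known. Every member is named, per-library values are given for called genes, for those passing the test and for their clusters, and of other lists only called genes are named unless said otherwise. Coordinates and promoter sequences are RefSeq GRCm38.p6, and exon overlaps are from GENCODE. Alternatives were pseudocounts of 1 and 0.01, other filters, scalings and eBayes settings, limma voom on recovered reads, a replicate block and leaving out each library. Tables were handled with Python 3.11.15, pandas 2.3.3 and scipy 1.17.1.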

Additional observations from a re-analysis of the deposited data

How the results depend on the processing

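Over 13 alternative fits, *Peg10*, *Nnat*, *Zdbf2* and *H19* were called in each. Leaving out 1 library gave 258 to 437 genes called higher (440 with all) and 212 to 266 called lower (322 with all), 3 to 4 and 2 to 2 imprinted genes called, and 4 to 6 higher and 2 to 3 lower imprinted genes passing the test. The lowest counts over all genes came without the second mutant library. The lone library of a genotype is then assumed to vary like the rest. The median log2 fold change of the imprinted genes tested (0.046) ran from 0.007 to 0.052 without 1 library, and was 0.026 with quantile normalization and 0.020 with limma voom. The paternal median (0.034) was 0.009 with quantile normalization and 0.014 with limma voom. The maternal median (-0.004) was 0.021 with no filter, -0.039 with quantile normalization and 0.049 without genes of limited imprinting. Signs turned only for genes near 0. Quantile normalization gave -0.07 for *Ndn* and -0.01 for *Peg13*, and limma voom -0.00 for *Ndn*. Without 1 library, the values crossed 0 for 8 genes and ran from -0.03 to 0.13 for *Dlk1*, -0.06 to 0.02 for *Copg2*, -0.04 to 0.02 for *Plagl1*, -0.03 to 0.05 for *Ndn*, -0.13 to 0.07 for *Mkrn3*, -0.05 to 0.17 for *Impact*, -0.02 to 0.01 for *Commd1* and -0.00 to 0.04 for *Peg13*. The cause was not tested. Same-numbered libraries are not paired by the labels, and their deviations from the genotype mean correlated at 0.047 across 12046 genes. With 2 libraries a genotype this value is the same for both replicate numbers by construction. With the replicate block 459 genes were called higher and 342 lower, with 3 and 2 imprinted genes called and 10 and 5 passing the test, gaining *Gnas* (adjusted p = 0.0269), *Rian* (0.0355) and *Mest* (0.0264). A log2 ratio without pseudocount left the sign of every pair as it was. Depth limits the genes with few reads, and with 1 pool a genotype no alternative speaks to differences between embryos.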

Other observations

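The genes of the insulin-like growth factor pathway, into which *Igf2*, *Igf2r* and *Grb10* feed, were described from a list of 18, of which 14 were tested. By limma and by limma voom 0 were called, 5 had an unadjusted p under 0.05, and regardless of fold 2 passed higher and 1 lower. Among all genes tested 34.1% had an unadjusted p under 0.05, and 9.76% passed higher and 9.95% lower, so these counts are near the background. Those named here were picked after their values were seen. *Akt1*, a kinase downstream of the receptors, had 102 and 109 RPKM in control and 140 and 146 in mutant (log2 fold change 0.44, limma adjusted p = 0.00256). *Igf1r*, the receptor through which IGF2 signals, had 18.6 and 19 RPKM in control and 18.7 and 19 in mutant (log2 fold change 0.00, adjusted p = 0.984).

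Neighbours of *Peg10* on chromosome 6 were also named after their values were seen. *Pon2*, an antioxidant enzyme gene with parental bias in some tissues, rose from 9.44 and 9.38 RPKM to 13.1 in both mutant libraries (log2 fold change 0.47, adjusted p = 0.00297). *Casd1*, next to *Sgce*, had 21.3 and 19 RPKM in control and 22.1 and 21.5 in mutant (log2 fold change 0.11, adjusted p = 0.301). *Ppp1r9a*, between *Peg10* and *Asb4*, had 7.35 and 7.04 RPKM in control and 7.61 and 7.59 in mutant (log2 fold change 0.08, adjusted p = 0.456).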
